A study of Macaca mulatta with 4 samples.

Results

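The genes described here build the DNA replication machinery and supply its nucleotides. There were 43 of them, picked by name for their known role, but with earlier results of these data known. Of these, 41 had a matched Ensembl macaque identifier among the 21314 genes of the count table. No row of the table matched ORC1 or CDC7, which are not analysed here. All 41 passed the filter on low counts and were tested.

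RNA was measured in rhesus macaque (Macaca mulatta) embryos at the morula stage, the ball of cells that precedes the blastocyst, in 4 libraries. The GG embryos (2 libraries) were gynogenetic, carrying chromosomes of maternal origin alone. The AG embryos (2 libraries) were androgenetic, carrying chromosomes of paternal origin alone. The labels name neither the parental animals nor the time in culture, they leave unclear how many embryos a library holds, and no biparental embryo was analysed here. They also do not state whether the replicates are from different animals. The p-values then measure only the spread among these 4 samples, and that spread may be technical.

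Before each division a cell marks its replication origins with the origin recognition complex. CDC6 and CDT1 then load the MCM2 to MCM7 helicase there, and cyclin E kinase and the CDC7 and DBF4 kinase switch it on. Polymerases held by the PCNA clamp copy the strands, while ribonucleotide reductase, made of the RRM1 and RRM2 subunits, turns ribonucleotides into deoxyribonucleotides. Cleavage embryos divide without growing and draw first on proteins and RNA stored in the oocyte, then on transcripts of their own genome.

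Library totals ran from 21335918 to 29733977 estimated counts in GG and from 14129608 to 19108735 in AG, with 15374 to 16313 genes detected in a library. Across tested genes the Spearman correlation was 0.968 between the GG libraries, 0.931 between the AG libraries and 0.803 to 0.858 between groups. Levels are in CPM, read counts scaled to a common TMM-adjusted total of tested genes, and are not corrected for gene length, so they compare one gene across libraries and not one gene with another. Of 6 embryo markers, 5 matched; all were detected and summed to 628 and 650.1 CPM in GG replicates 1 and 2, against 430 and 485 CPM in AG replicates 1 and 2. Markers of cumulus cells (5 of 8 matched) summed to at most 1.09 CPM and those of sperm (5 of 6 matched) to at most 0.499 CPM in any library, with FSHR, PRM2, TNP2 and ODF1 at 0 in all 4. Blood markers (5 of 6 matched) summed to 14.8 and 17.5 CPM in GG and to 155 and 68.3 CPM in AG. Most of the AG sum was PTPRC, at 6.46 and 3.44 CPM in GG against 141 and 65.9 CPM in AG, while the T cell gene CD3E had 0 counts in GG and 1 count in AG. LYZ lay the other way, at 5.37 and 9.82 CPM in GG against 0.427 and 1.27 CPM in AG (adjusted p = 0.0533), and HBA1 and CD14 overlapped between groups. The part of these markers in the results below was not tested.

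GG morulae had less RNA of several replication genes than AG morulae, and the gene that stood out was RRM1. At an adjusted p under 0.05 (edgeR's quasi-likelihood test over all genes), 6 of the 41 members were lower in GG (RRM1, CDC6, MCM10, CCNE2, PCNA and RFC1), 1 was higher (ORC3) and 34 were not called. The 6 lower members are 14.6% of those tested, beside 6.58% of all 13227 genes tested that were called lower in GG. The 1 higher member is 2.44%, beside 6.34% of all genes called higher. In either direction the share was 17.1% for the members and 12.9% for all genes, so the members as a whole were called at a rate not far from the background. Because the list was chosen with earlier results of these data known, these shares describe it and do not test it. DESeq2 called 11 members (26.8%, beside 23.3% of all genes it gave an adjusted p), adding RRM2, CDC45 and MCM5 as lower and POLA2 as higher. Leaving out GG replicate 1 or GG replicate 2, when the spread rests on the AG pair alone, lost most calls, over all genes as among the members. Without AG replicate 2 the calls rose, again over all genes as among the members. The log2 fold change of RRM1 was -3.86 without GG replicate 1 and -3.77 without GG replicate 2. Bulk RNA cannot tell fewer cells of a kind from less RNA per cell.

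**Figure D1:**
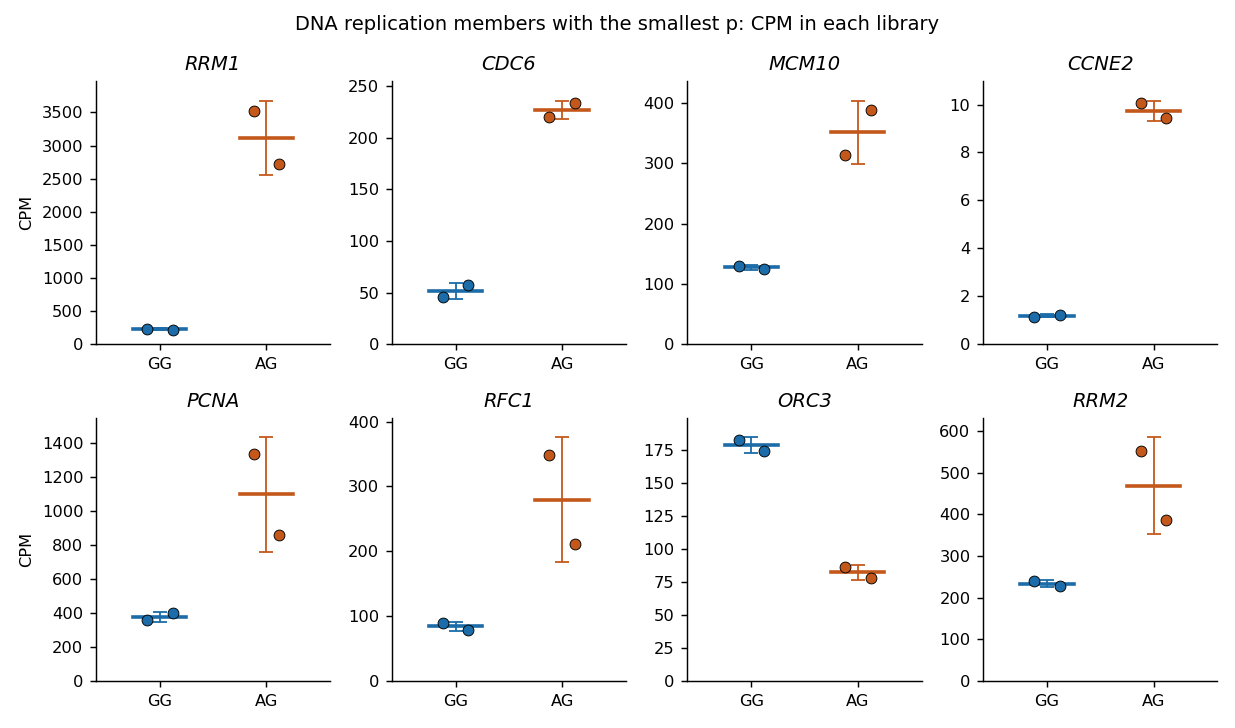
CPM of the 7 called members and of RRM2, the next by p, in each library (points), with the mean (line) and SD (bar) of GG and AG, n = 2 each; each panel has its own linear axis from 0. RRM1 lies at 234 and 214 CPM in GG against 3514 and 2719 CPM in AG, and ORC3 is the panel in which GG is above AG.

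RRM1 (ENSMMUG00000003962) encodes the large, catalytic subunit of ribonucleotide reductase. It stood at 234 and 214 CPM in GG replicates 1 and 2, against 3514 and 2719 CPM in AG replicates 1 and 2. The groups lay far apart, and the GG libraries differed little from each other. The level was 13.9-fold lower in GG, with means of 223.9 ± 13.98 CPM in GG and 3117 ± 562 CPM in AG (SD, n = 2 each; log2 fold change -3.80 ± 0.25 SE, edgeR adjusted p = 0.00488). Of all tested genes, 21 had a smaller p. RRM1 kept its call under each of the 12 alternatives run, with log2 fold changes of -3.99 to -3.61, and the largest adjusted p were 0.0341 without GG replicate 1 and 0.0381 without GG replicate 2.

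RRM2 (ENSMMUG00000002057), the small subunit that carries the radical and is made mainly in S phase, was closer between the groups. It had 240 and 227 CPM in GG, against 552 and 386 CPM in AG. The groups did not overlap, but the gene was not called (log2 fold change -1.005 ± 0.26 SE, adjusted p = 0.0607). With DESeq2 the adjusted p was 0.0286, and with every gene kept in the edgeR fit it was 0.0327. In edgeR it was 0.0644 with DESeq2 size factors and 0.0692 with upper-quartile normalization. The log2 fold change of RRM2 was -0.73 without AG replicate 1 and -1.26 without AG replicate 2. RRM2 has processed copies in the human genome, so its count may hold reads of such copies.

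Taken as a ratio of unscaled counts, which no normalization alters, RRM1 to RRM2 was 0.975 and 0.941 in GG replicates 1 and 2 and 6.37 and 7.04 in AG replicates 1 and 2. Both libraries of a group gave close ratios. This ratio, and those of other gene pairs given below, were chosen after the values were seen and carry no test. RRM1 made up 4.74% and 4.42% of the summed CPM of all matched members in GG, against 32.8% and 31.6% in AG. That sum was 4930 and 4847 CPM in GG and 10724 and 8601 CPM in AG. Without RRM1 it was 4697 and 4633 CPM in GG, against 7210 and 5882 CPM in AG, so the libraries of GG remained below those of AG.

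**Figure D2:**
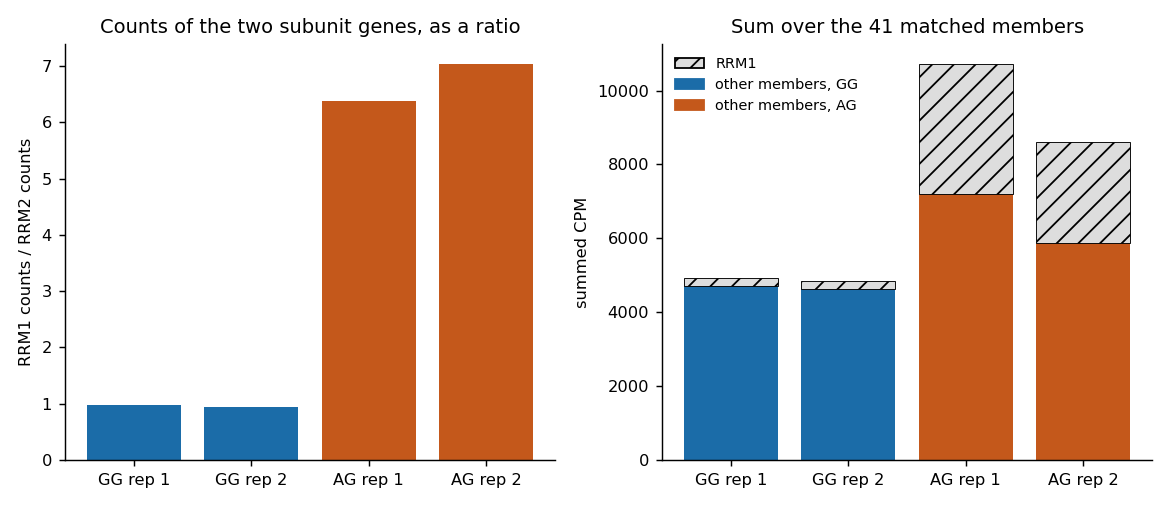
Left, RRM1 counts divided by RRM2 counts in each library, not corrected for gene length; right, CPM summed over the 41 matched members, with RRM1 hatched and the other members in the colour of their group. The ratio is 0.975 and 0.941 in GG against 6.37 and 7.04 in AG, and RRM1 fills 32.8% and 31.6% of the AG bars.

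TYMS (ENSMMUG00000004046), thymidylate synthase, makes dTMP from dUMP. It had 116 and 209 CPM in GG, against 230 and 186 CPM in AG. The groups overlapped and the gene was not called (log2 fold change -0.35 ± 0.35 SE, adjusted p = 0.537). Of the 3 nucleotide supply members, RRM1 was thus the 1 called.

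No origin recognition gene was called lower in GG. ORC3 (ENSMMUG00000002821), a core subunit of the complex, was the 1 member called higher in GG. It had 183 and 174 CPM in GG, against 86.2 and 78.1 CPM in AG. The GG level was 2.17-fold that of AG (178.6 ± 5.92 CPM in GG, 82.1 ± 5.75 CPM in AG, SD, n = 2 each; log2 fold change 1.12 ± 0.25 SE, edgeR adjusted p = 0.0425), and the adjusted p was 0.308 without GG replicate 1, 0.314 without GG replicate 2 and 0.0547 with the replicate number as a block. ORC4, an ATP-binding subunit, was above AG in both GG libraries, at 198 and 195 CPM against 159 and 156 CPM, and was not called (log2 fold change 0.32 ± 0.23 SE). ORC2, ORC5 and ORC6 had groups that overlapped, with log2 fold changes of -0.29, 0.21 and 0.28. The 5 matched ORC genes summed to 853 and 807 CPM in GG, against 684 and 593 CPM in AG.

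A factor that acts on the origin complex was lower in GG. CDC6 (ENSMMUG00000004755), the ATPase that joins the origin complex to the MCM helicase, had 46.0 and 57.1 CPM in GG, against 221 and 233 CPM in AG. Libraries of a group were close and the groups well apart. The level was 4.405-fold lower in GG (51.5 ± 7.85 CPM in GG, 227 ± 9.14 CPM in AG, SD, n = 2 each; log2 fold change -2.14 ± 0.27 SE, edgeR adjusted p = 0.0151), and the adjusted p was 0.145 without GG replicate 1 and 0.122 without GG replicate 2. In unscaled counts, CDC6 to the sum of ORC2 to ORC6 was 0.0539 and 0.0707 in GG and 0.323 and 0.394 in AG.

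CDT1, the other loading factor, had 10.2 and 5.93 CPM in GG, against 10.3 and 13.8 CPM in AG. Its nearest libraries, GG replicate 1 and AG replicate 1, were almost level, and it was not called (log2 fold change -0.58 ± 0.48 SE). GMNN encodes geminin, which binds CDT1 and blocks a second round of loading. It had 219 and 194 CPM in GG, against 425 and 279 CPM in AG. The groups lay apart and GMNN was not called (log2 fold change -0.77 ± 0.29 SE, edgeR adjusted p = 0.132). Its log2 fold change was -0.44 without AG replicate 1 and -1.06 without AG replicate 2. The ratio of CDT1 to GMNN counts was 0.0467 and 0.0306 in GG and 0.0243 and 0.0496 in AG, ranges that overlapped.

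The MCM2 to MCM7 helicase, the ring that unwinds DNA, had estimated fold changes of mixed size and sign, which were not tested against each other. With edgeR none of its 6 genes was called and 3 had an unadjusted p under 0.05, beside 4236 of all 13227 genes tested. DESeq2 called 1, MCM5, beside 23.3% of all genes it gave an adjusted p. MCM5 (ENSMMUG00000021054) had 70.7 and 65.9 CPM in GG, against 110.2 and 165 CPM in AG (log2 fold change -1.01 ± 0.31 SE, edgeR adjusted p = 0.0845). Its log2 fold change was -1.28 without AG replicate 1 and -0.71 without AG replicate 2. MCM4 had 136 and 142 CPM in GG, against 284 and 200.2 CPM in AG (log2 fold change -0.80 ± 0.27 SE, edgeR adjusted p = 0.110). Its log2 fold change was -0.53 without AG replicate 1 and -1.04 without AG replicate 2. MCM2 stood at 29.6 and 28.7 CPM in GG, against 46.5 and 52.8 CPM in AG. Both GG libraries were below both AG libraries for these 3 and for MCM6 and MCM7, whose log2 fold changes were -0.24 and -0.27. That arrangement was found in 30.7% of all genes tested. MCM3 had its GG libraries above, at 288 and 273 CPM in GG against 231 and 217 CPM in AG (log2 fold change 0.32 ± 0.22 SE). Subunits of 1 ring thus had log2 fold changes from -1.01 to 0.32, and their summed CPM was 900.5 and 902 in GG against 1130 and 1093 in AG.

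Among the factors that activate the helicase, MCM10 (ENSMMUG00000005602) was called. It is needed for the loaded helicase to start unwinding and is no part of the ring. It had 130.3 and 125 CPM in GG, against 314 and 389 CPM in AG. The level was 2.76-fold lower in GG (127.5 ± 3.89 CPM in GG, 352 ± 52.9 CPM in AG, SD, n = 2 each; log2 fold change -1.46 ± 0.24 SE, edgeR adjusted p = 0.0261), and the adjusted p was 0.201 without GG replicate 1 and 0.216 without GG replicate 2. In unscaled counts, MCM10 to the sum of MCM2 to MCM7 was 0.145 and 0.138 in GG and 0.278 and 0.356 in AG.

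CDC45, which joins the ring in the active helicase, had 59.1 and 61.8 CPM in GG, against 169 and 106 CPM in AG. The groups did not overlap and the gene was not called (log2 fold change -1.19 ± 0.33 SE, edgeR adjusted p = 0.0672). With DESeq2 the adjusted p was 0.0181, and with every gene kept in the edgeR fit it was 0.0380. In edgeR it was 0.0704 with DESeq2 size factors and 0.0720 with upper-quartile normalization. The log2 fold change of CDC45 was -0.82 without AG replicate 1 and -1.50 without AG replicate 2. The 4 genes of the GINS complex, the helicase's remaining partner, were not called with edgeR. GINS3 and GINS4 had both GG libraries below both AG libraries (log2 fold change -0.82 for each), GINS2 had them above (0.53), and GINS1 overlapped (0.08). Of all genes tested, 30.7% had both GG libraries below and 33.4% had them above. For GINS4 the log2 fold change was -0.33 without AG replicate 1 and -1.22 without AG replicate 2.

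**Figure D3:**
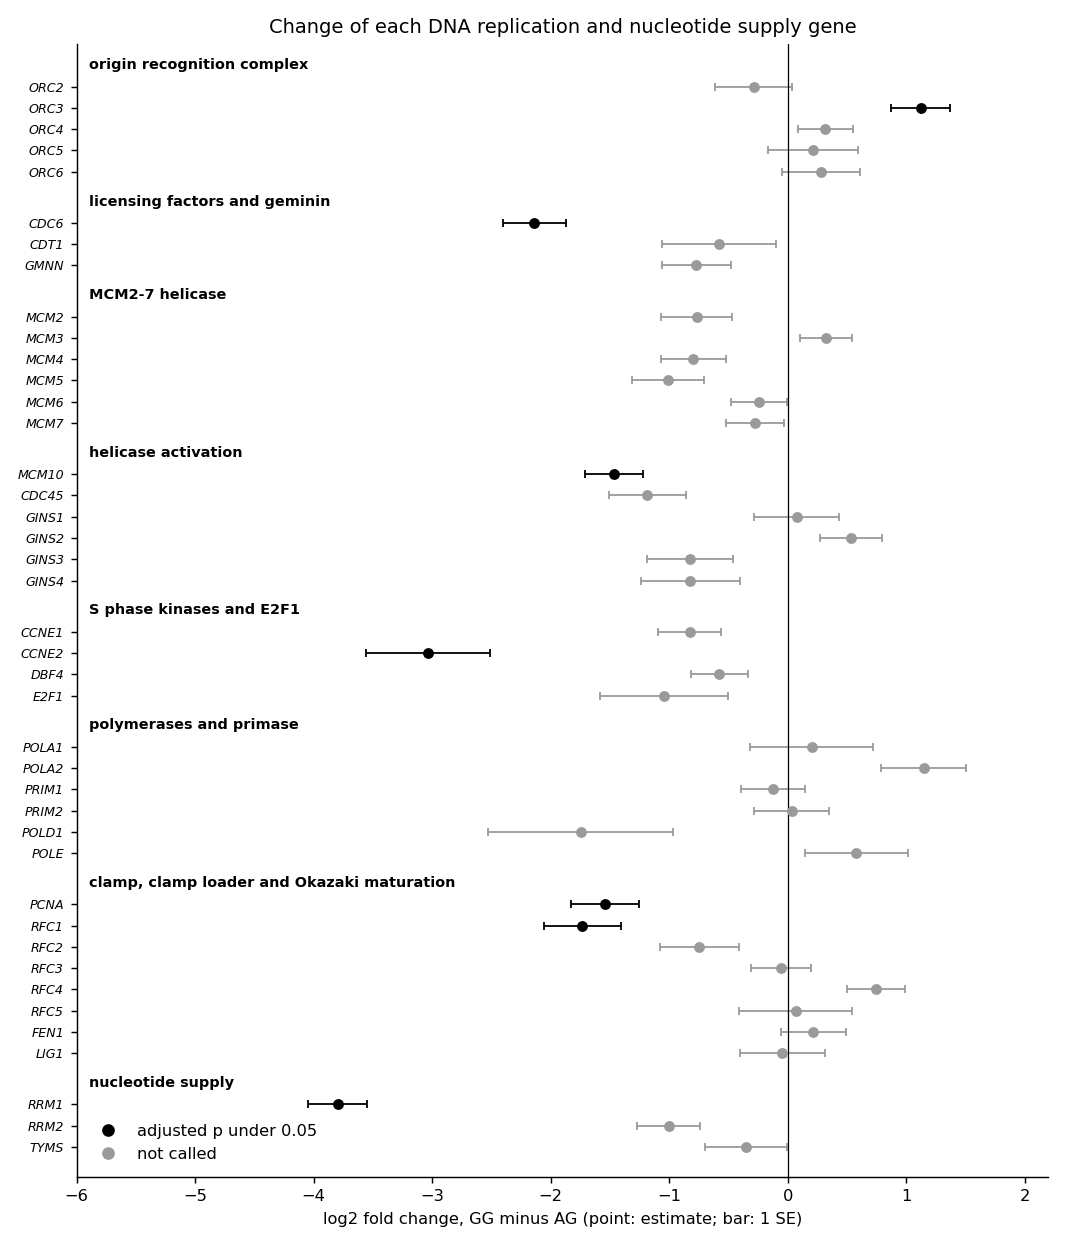
Log2 fold change (GG minus AG; point) with 1 SE (bar) of each of the 41 matched members, grouped by role; black marks an adjusted p under 0.05 and grey the rest. RRM1 lies farthest from 0 at -3.80, and 14 members have positive values, of which ORC3 at 1.12 is the 1 called.

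Cyclin E, the partner of CDK2 at the entry to S phase, is encoded by a pair of genes. CCNE2 (ENSMMUG00000005358) had 1.14 and 1.23 CPM in GG (24 and 36 counts), against 10.04 and 9.45 CPM in AG (141 and 186 counts). It was 8.19-fold lower in GG (1.18 ± 0.0620 CPM in GG, 9.75 ± 0.423 CPM in AG, SD, n = 2 each; log2 fold change -3.03 ± 0.52 SE, edgeR adjusted p = 0.0272), and the adjusted p was 0.183 without GG replicate 1 and 0.187 without GG replicate 2. CCNE2 overlaps INTS8 in assembly T2T-MMU8v2.0, and no source used here says whether reads were counted by strand. INTS8 had 78.1 and 85.5 CPM in GG, against 71.2 and 88.8 CPM in AG, a log2 fold change of 0.03 ± 0.28 SE.

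CCNE1 had 86.5 and 70.4 CPM in GG, against 144 and 135 CPM in AG, and was not called (log2 fold change -0.83 ± 0.26 SE, edgeR adjusted p = 0.0951). Its log2 fold change was -0.79 without AG replicate 1 and -0.89 without AG replicate 2. CCNE2 to CCNE1 in unscaled counts was 0.0132 and 0.0174 in GG and 0.0700 and 0.0701 in AG. DBF4, the activator of the CDC7 kinase, had 122 and 112 CPM in GG, against 166 and 183 CPM in AG, with groups apart and no call (log2 fold change -0.58 ± 0.24 SE). E2F1, a transcription factor for many S phase genes, was low in every library, at 2.33 and 3.44 CPM in GG (49 and 101 counts) against 5.77 and 6.15 CPM in AG (81 and 121 counts), and was not called (log2 fold change -1.04 ± 0.54 SE). In all 4 matched genes of this set the GG libraries were the lower ones, an arrangement found in 30.7% of all genes tested.

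Polymerase and primase genes gave no call with edgeR in either direction. Of the 6, 1 had an unadjusted edgeR p under 0.05, beside 4236 of all 13227 genes tested. DESeq2 called that 1, POLA2, beside 23.3% of all genes it gave an adjusted p. POLA2 (ENSMMUG00000022031), the regulatory subunit of DNA polymerase alpha, had 30.7 and 41.7 CPM in GG, against 14.2 and 18.4 CPM in AG (log2 fold change 1.15 ± 0.36 SE, adjusted p = 0.0901 with edgeR and 0.0357 with DESeq2). POLA1, the catalytic subunit of that polymerase and an X-linked gene in primates, had 124 and 97.0 CPM in GG, against 143 and 49.1 CPM in AG. The AG libraries enclosed the GG libraries, and the difference between AG replicates was the widest of any member in that group (log2 ratio 1.53 in size). The primase genes PRIM1 and PRIM2 overlapped between groups, with log2 fold changes of -0.13 and 0.03. POLE, the leading-strand polymerase, had 14.2 and 10.7 CPM in GG, against 9.62 and 7.06 CPM in AG. POLD1, the catalytic subunit of polymerase delta, had 19 and 36 counts in GG, against 25 and 106 counts in AG, and its log2 fold change of -1.75 ± 0.78 SE carried the largest error of the uncalled members.

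The sliding clamp and 1 subunit of its loader were lower in GG. PCNA (ENSMMUG00000013259), the ring that tethers polymerases to DNA, had 357 and 398 CPM in GG, against 1335 and 859 CPM in AG. It was 2.91-fold lower in GG (378 ± 29.3 CPM in GG, 1097 ± 336 CPM in AG, SD, n = 2 each; log2 fold change -1.54 ± 0.29 SE, edgeR adjusted p = 0.0309). Without GG replicate 1 the adjusted p was 0.198 and without GG replicate 2 it was 0.181. PCNA, too, has processed copies in the human genome, and its count is uncertain to that extent.

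RFC1 (ENSMMUG00000009324), the large subunit of the clamp loader, had 89.0 and 79.2 CPM in GG, against 348 and 212 CPM in AG. The level was 3.33-fold lower in GG (84.1 ± 6.95 CPM in GG, 279.7 ± 96.1 CPM in AG, SD, n = 2 each; log2 fold change -1.73 ± 0.32 SE, edgeR adjusted p = 0.0310), and the adjusted p was 0.194 without GG replicate 1 and 0.225 without GG replicate 2. The small subunits RFC2 to RFC5, which RFC1 shares a complex with, were not called with edgeR or DESeq2. Of these 4, 1 had an unadjusted edgeR p under 0.05, beside 4236 of all 13227 genes tested. RFC4 was above AG in both GG libraries, at 234 and 264 CPM against 137 and 160 CPM (log2 fold change 0.75 ± 0.24 SE, edgeR adjusted p = 0.0978). Its log2 fold change was 0.63 without AG replicate 1 and 0.84 without AG replicate 2. RFC2 was below AG (42.3 and 47.0 CPM against 58.8 and 90.9 CPM), and RFC3 and RFC5 overlapped. RFC1 counts over the summed counts of RFC2 to RFC5 were 0.201 and 0.175 in GG, against 0.980 and 0.522 in AG. The sum of RFC2 to RFC5 itself was 443 and 453 CPM in GG, against 355 and 406 CPM in AG.

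FEN1, the nuclease that trims Okazaki fragments, had 59.5 and 67.0 CPM in GG, against 54.6 and 54.2 CPM in AG. LIG1, the ligase that joins them, had 27.8 and 19.6 CPM in GG, against 21.9 and 26.9 CPM in AG. Neither was called, with log2 fold changes of 0.22 ± 0.28 and -0.05 ± 0.36 SE.

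Over the 41 tested members, 27 had a negative and 14 a positive log2 fold change, with a median of -0.35, beside 48.9% negative and a median of 0.04 over all tested genes. Both GG libraries lay below both AG libraries in 22 members (53.7%), beside 30.7% of all tested genes. They lay above in 8 members (19.5%), beside 33.4% of all tested genes, and the groups overlapped in 11. These comparisons, too, are of a list chosen with earlier results known and carry no test. By role, the median log2 fold change was -1.005 for nucleotide supply, -0.93 for the S phase kinases with E2F1, -0.82 for helicase activation, -0.77 for the licensing factors with geminin, -0.52 for the MCM ring, -0.05 for the clamp and fragment-joining genes, 0.12 for polymerases and primase and 0.28 for the origin complex. These medians rest on 3 to 8 genes each and were not tested against each other. The uncalled members had log2 fold changes from -1.75 to 1.15 with SE from 0.22 to 0.78. Of these 34, 16 were within 0.5 of no change and 9 had an unadjusted edgeR p under 0.05. With the called members, 16 of 41 had such a p, beside 4236 of all 13227 genes tested. The smallest change called in any gene was 0.89 on the log2 scale. The median difference between replicates of the members, as the log2 ratio of CPM + 0.5, was 0.17 in GG and 0.37 in AG, beside 0.32 in GG and 0.52 in AG for all tested genes.

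**Figure D4:**
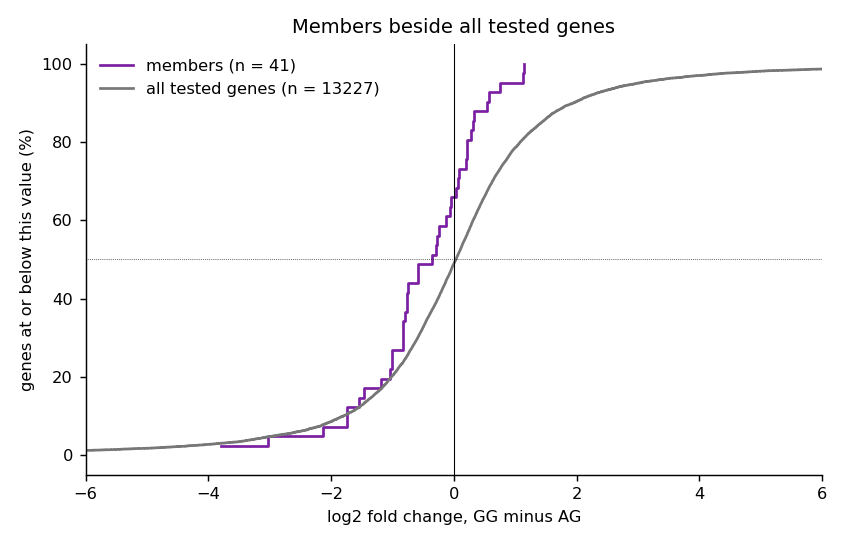
Share of genes (%) at or below each log2 fold change (GG minus AG), for the 41 members and for all 13227 tested genes; the dotted line marks the median and the axis is cut at 6 on either side. The members' curve lies to the left of the curve of all genes around 0 (medians -0.35 and 0.04) and ends at 1.15.

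Further genes of the replication fork, listed by role, moved both ways. Of 32 listed, 31 matched and 29 were tested. Of those tested, 2 were lower in GG, 2 were higher and 25 were not called. The called genes are 13.8% of those tested, beside 12.9% of all genes tested that were called in either direction. Like the members, the further lists were chosen with earlier results of these data known. TIPIN, which with TIMELESS steadies the fork, had 86.7 and 87.3 CPM in GG, against 634 and 358 CPM in AG (log2 fold change -2.51 ± 0.34 SE, edgeR adjusted p = 0.0177). CLSPN encodes claspin, the fork protein that passes on checkpoint signals and binds the same complex. It had 57.8 and 37.2 CPM in GG, against 320 and 175 CPM in AG (log2 fold change -2.38 ± 0.41 SE, adjusted p = 0.0277). TIMELESS itself overlapped between groups (10.3 and 8.12 CPM in GG, 5.34 and 12.9 CPM in AG). The genes higher in GG were the non-catalytic subunits of ribonuclease H2, which removes ribonucleotides from DNA. RNASEH2B had 50.4 and 59.9 CPM in GG, against 5.06 and 13.2 CPM in AG, and RNASEH2C had 110.0 and 107 CPM in GG, against 52.4 and 41.8 CPM in AG (log2 fold changes 2.59 ± 0.53 and 1.20 ± 0.28 SE, adjusted p = 0.0372 and 0.0478). The catalytic subunit gene RNASEH2A had 0 counts in both GG libraries and 1 and 4 in AG, and was not tested. The 4 calls were lost without GG replicate 1 and without GG replicate 2. Calls of this list rose without AG replicate 2, and in each case calls over all genes moved the same way. RNASEH2C also lost its call with DESeq2 size factors (edgeR adjusted p = 0.0533), after thinning (0.0507) and with the replicate number as a block (0.0579).

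Among the other nucleotide supply genes, 24 of 26 matched and were tested. Of those tested, 2 were lower in GG, 2 were higher and 20 were not called. The called genes are 16.7% of those tested, beside 12.9% of all genes tested. IMPDH1, of guanine nucleotide synthesis, had 35.1 and 26.7 CPM in GG, against 103 and 185 CPM in AG (log2 fold change -2.22 ± 0.39 SE, adjusted p = 0.0281). Its relative IMPDH2 had 376 and 355 CPM in GG, against 382 and 592 CPM in AG, with the nearest libraries almost level, and was not called (log2 fold change -0.41 ± 0.28 SE). PPAT, the first enzyme of purine synthesis, had 162 and 145 CPM in GG, against 510 and 296 CPM in AG (log2 fold change -1.39 ± 0.33 SE, adjusted p = 0.0482). PPAT overlaps PAICS, a later enzyme of the pathway, in assembly T2T-MMU8v2.0. PAICS had 146 and 133 CPM in GG, against 127 and 42.0 CPM in AG, and was not called (log2 fold change 0.72 ± 0.53 SE). ATIC, which completes that pathway, had 578 and 583 CPM in GG, against 314 and 313 CPM in AG (log2 fold change 0.89 ± 0.21 SE, adjusted p = 0.0488). MTHFD1, a folate enzyme that feeds it, had 299 and 370 CPM in GG, against 152 and 126 CPM in AG (log2 fold change 1.27 ± 0.25 SE, adjusted p = 0.0360). The first and last enzymes of purine synthesis thus lay on opposite sides. Both calls are close to the threshold, ending with DESeq2 size factors (0.0519 for PPAT, 0.0530 for ATIC) and upper-quartile scaling (0.0526 for PPAT, 0.0508 for ATIC). ATIC also missed it after thinning all libraries to the smallest (0.0501), with plain library totals (0.0538) and with the replicate number as a block (0.0686). Calls of this list fell without GG replicate 1 or GG replicate 2 and rose without AG replicate 2, as calls over all genes did.

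Regulators of S phase entry included 30 genes, of which 26 matched and 25 were tested. Of those tested, 3 were lower in GG, 3 were higher and 19 were not called. The called genes are 24.0% of those tested, beside 12.9% of all genes tested, in a list chosen with earlier results known. TFDP2, a dimer partner of E2F proteins, had 20.9 and 22.7 CPM in GG, against 144 and 225 CPM in AG (log2 fold change -3.08 ± 0.34 SE, adjusted p = 0.0123). Its relative TFDP1 overlapped, at 48.7 and 59.8 CPM in GG against 29.7 and 66.7 CPM in AG. E2F2, counted among the 3 lower genes, passed the filter on low counts through the AG libraries alone. It had 0 and 4 counts in GG, against 54 and 68 counts in AG (log2 fold change -5.50 ± 1.17 SE, edgeR adjusted p = 0.0397). Its size is loosely bounded, since the fitted log2 fold change was -4.67 without GG replicate 1 and -9.07 without GG replicate 2, where the remaining GG library had 0 counts. FBXO5, also known as EMI1, which holds back the anaphase-promoting complex so that geminin and cyclins accumulate, had 123 and 100.2 CPM in GG, against 358 and 294 CPM in AG (log2 fold change -1.55 ± 0.26 SE, adjusted p = 0.0262).

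The regulators higher in GG were a cyclin D kinase and ubiquitin ligase components. CDK6 had 12.02 and 11.76 CPM in GG, against 1.64 and 0.711 CPM in AG (log2 fold change 3.35 ± 0.62 SE, adjusted p = 0.0308), while CDK4 overlapped between groups. CUL4B, an X-linked cullin of the ligase that degrades CDT1, had 206 and 178 CPM in GG, against 58.0 and 30.5 CPM in AG (log2 fold change 2.12 ± 0.39 SE, adjusted p = 0.0294). SKP2, a ligase subunit that targets CDT1 and the CDK inhibitor p27, had 43.3 and 63.4 CPM in GG, against 13.5 and 20.2 CPM in AG (log2 fold change 1.66 ± 0.39 SE, adjusted p = 0.0478; 0.0583 without AG replicate 1 and 0.0520 with plain library totals). DTL, the adaptor that brings CDT1 to the CUL4 ligase, had 69.4 and 68.0 CPM in GG, against 158 and 126 CPM in AG, with groups apart and no call (log2 fold change -1.05 ± 0.27 SE). The 6 calls were lost without GG replicate 1 (adjusted p = 0.102 to 0.194) and without GG replicate 2 (0.104 to 0.344).

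**Figure D5:**
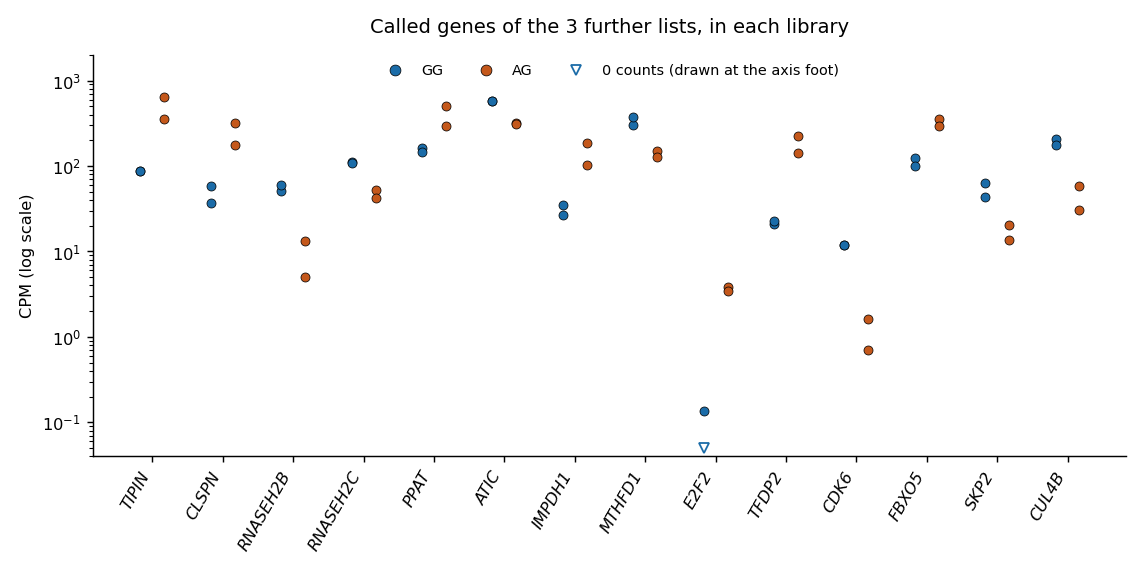
CPM on a log axis of the 14 called genes of the 3 further lists, in each library, with GG at the left and AG at the right of each gene; the open triangle marks a library with 0 counts. RNASEH2B, RNASEH2C, ATIC, MTHFD1, CDK6, SKP2 and CUL4B lie higher in GG and the other 7 lower.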

How the data were processed

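The authors deposited unscaled estimated counts, in part not whole numbers, for Ensembl macaque genes, with 1 column per library. Per the submitters' processing notes, the build was rheMac8 and the tools were Salmon 0.12.0, STAR 2.6.0c and Trim Galore; their roles and the annotation are not stated, and no gene coordinates are given. Per the labels' protocols, cDNA was amplified with a SMARTer low-input kit; no molecular identifiers are named, so counts are not independent molecules. Symbols were matched by Ensembl identifier. Estimated counts were rounded and tested with edgeR 4.0.16 (R 4.3.3): a filter on low counts (filterByExpr, with a count minimum of 10 and a total of at least 15), TMM, the quasi-likelihood F test with group alone, and Benjamini-Hochberg adjustment over all tested genes. Log2 fold changes are GG minus AG, each with the SE that the F statistic implies. DESeq2 1.42.0 and other settings served as alternatives; plain library totals were added after seeing the data. Members and lists were chosen with earlier results of these data known. All members are named, with full statistics for those called and the next by p up to 8; of the other lists, up to 6 called genes by smallest p. Uncalled genes of those lists and single marker genes were named after their values were seen. A planned motif search in promoters was not run, since no promoter sequence was used here.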

Additional observations from a re-analysis of the deposited data

How the results depend on the processing

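Of the 7 member calls, all kept their direction in every alternative in which they were tested. Beside 1709 genes called in all, 2609 were called with every gene kept in the fit and 3341 with DESeq2, and leaving out 1 library gave 84 to 3786. Members gave 7 calls, 11 with DESeq2 and 1 to 14 with a library left out. The other replication genes gave 4 calls and 0 to 10 with a library left out. The other nucleotide supply genes gave 4 calls, 2 with DESeq2 size factors, 2 with upper-quartile normalization and 0 to 10 with a library left out. The S phase regulators gave 6 calls, 10 with DESeq2 and 0 to 8 with a library left out. The counts of 0 came from edgeR without a GG library, the settings with the fewest calls over all genes. DESeq2 was not run there. With every library kept, DESeq2 called 23.3% of all genes it gave an adjusted p. The median log2 fold change of members stayed between -0.59 and -0.30. Scaled to plain totals, the members' mean summed CPM was 4823 in GG (4889 with TMM) and 9758 in AG (9663 with TMM).

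Uncalled members near 0 changed sign. PRIM2 stood at -0.00085 with plain totals and RFC5 at -0.0040 with the replicate block. With a library left out, log2 fold changes ran from -0.19 to 0.74 for ORC5, -0.091 to 0.73 for ORC6, -0.28 to 0.52 for GINS1, -0.39 to 1.16 for POLA1, -0.39 to 0.15 for PRIM1, -0.13 to 0.18 for PRIM2, -0.19 to 0.055 for RFC3, -0.59 to 0.50 for RFC5, -0.31 to 0.16 for LIG1 and -0.87 to 0.018 for TYMS. The cause was not tested. Same-numbered libraries share only a number in the labels, and their deviations correlated at 0.0986 over genes; with the replicate number as a block, 6 members and 1697 genes were called, and ORC3 was not (adjusted p = 0.0547). With 2 libraries a group, p-values rest on 2 residual degrees of freedom and the spread shared across genes.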

Other observations

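Among the other nucleotide supply genes, 4 picked after their values were seen differed widely between the AG libraries. DCK, deoxycytidine kinase, had 17.6 and 32.4 CPM in GG replicates 1 and 2, against 166 and 28.6 CPM in AG replicates 1 and 2. TK1, thymidine kinase, had 70.2 and 65.2 CPM in GG, against 171 and 39.9 CPM in AG. RRM2B, the reductase subunit known as a p53 target, had 30.3 and 38.7 CPM in GG, against 120.5 and 50.2 CPM in AG. In each, AG replicate 1 was the highest of the 4 libraries. SHMT2, the mitochondrial serine hydroxymethyltransferase, went the other way within AG, at 28.4 and 42.7 CPM in GG, against 42.0 and 138 CPM in AG. None of these 4 genes was called with edgeR over all genes. Others of the list were closer within AG, such as DUT (196 and 239 CPM in AG replicates 1 and 2) and TK2 (2.56 and 2.95 CPM).

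Of the embryo markers, 1 was higher and 2 were lower in GG (edgeR adjusted p = 0.0159 for TFCP2L1, 0.0281 for DPPA4 and 0.0294 for KLF17). TFCP2L1 had 15.2 and 16.8 CPM in GG, against 1.14 and 1.17 CPM in AG. DPPA4 had 15.8 and 12.2 CPM in GG, against 62.8 and 47.9 CPM in AG, and KLF17 had 2.37 and 0.614 CPM in GG, against 34.2 and 21.4 CPM in AG. Their part in the members' differences was not tested.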
